A study of Homo sapiens with 66 samples.

Results

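Binding of the hypoxia-inducible factor (HIF) subunit HIF-1β was mapped in a liver and a pair of kidney cell lines, and the sites that recurred across this boundary of tissue are described here. A site was the merged interval of HIF-1β peaks called in both HepG2 libraries, and it was chosen as shared when it overlapped, by at least 1 bp, a HIF-1β peak of either replicate in wild-type HKC8 cells or in RCC4 cells. Of 2156 HepG2 HIF-1β sites, 1112 were shared and 1044 were not. The HIF-1β calls of these 6 libraries selected the sites, so the sites were chosen by measured values, which are given as a description and carry no test. The other 44 peak lists of the series had no part in the choice.

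HIF binds DNA as a dimer of an oxygen-regulated α subunit, HIF-1α or HIF-2α, with HIF-1β. In oxygenated cells prolyl hydroxylases mark the α subunits, and the von Hippel-Lindau (VHL) ubiquitin ligase directs their destruction. In hypoxia the α subunits accumulate, and the dimers recognise the hypoxia response element (HRE), whose core reads ACGTG or GCGTG. HIF-1β is shared by both dimers, so that a HIF-1β peak does not by itself tell which α subunit is present. Genes of glycolysis are classical HIF targets in most cell types, whereas other targets, such as the erythropoietin gene in kidney and liver, respond in few.

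HKC8 is an immortalised human renal tubular line, RCC4 a renal carcinoma line without functional VHL, and HepG2 a human liver cancer line. In a first experiment, on severity and duration of hypoxia, HKC8 was kept for 6 h at 3% oxygen, or at 0.5% oxygen for a time of 6 h, 16 h or 48 h, with libraries of both α subunits and of HIF-1β in each. In a separate knockout experiment, wild-type (WT) HKC8 cells, HIF-1α knockout (KO) cells and HIF-2α KO cells were kept at 0.5% oxygen for 16 h, and each knockout was a line grown from 1 clone in which CRISPR-Cas9 had disrupted the gene. RCC4 was studied in normoxia with its HIF-α stabilised by the loss of VHL, and HepG2 at 0.5% oxygen for 16 h. Each group had 2 libraries, and a knockout is compared here as its clone, since clone and gene cannot be told apart. The lists held 237 to 8268 peaks on chromosomes 1 to 22, X and Y, and the depth behind them is unknown. An uncalled site may therefore lie under the caller's limit in that library, and library counts measure the spread between these samples, which may be technical.

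The 4 HepG2 HIF-α lists did not group by their labels and are set out before the results. The libraries labelled HIF-1α replicate 2 and HIF-2α replicate 1 shared 50.1% of the shorter list, whereas the pairs of equal label shared 35% (HIF-1α) and 25.9% (HIF-2α). The remaining pairs of unequal label shared 26.8% to 44.5%. At the shared sites the library labelled HIF-1α replicate 1 had a peak at 381 sites and that labelled HIF-1α replicate 2 at 1091 sites. The library labelled HIF-2α replicate 1 had a peak at 1013 sites and that labelled HIF-2α replicate 2 at 498 sites. Within 1 kb of a transcription start site (TSS) lay 36.2% and 38.4% of the shared sites called in the pair of smaller counts, and 57% and 58.9% of those called in the pair of larger counts. No library was reassigned. Counts out of 44 libraries include these 4 lists, their medians over all shared sites and over listed genes are also given for the 40 kidney-line libraries, and the isoform difference is given with and without HepG2.

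Sequences from GRCh37 show what the shared sites look like. Each stretch of 29 bases surrounds the HRE core nearest to the centre of a site, read on the strand that carries ACGTG or GCGTG, with HRE cores on either strand in capitals. The group below holds promoter and distal sites that were called in most libraries of the other experiments, or that mark a pathway described later.
LDHA promoter, chr11:18416012-18416040, plus strand: agcccgactcaCACGTGggttcccgcacg
PPP1R3C promoter, chr10:93392950-93392978, plus strand: ctcgccccggcaACGTGatcgccccgggg
ALDOA promoter, chr16:30076633-30076661, minus strand: cgcggctgcagcGCGTGtcaccatagggg
PLOD2 promoter, chr3:145879101-145879129, minus strand: caaacagtccagACGTGgggcccaggagg
P4HA1 promoter, chr10:74856694-74856722, plus strand: gcagccctcgctACGTGagctcgatcaca
PDK1 promoter, chr2:173420798-173420826, minus strand: ctgccgagtggtACGTGagggACGTGgcg
KDM4B promoter, chr19:4968590-4968618, minus strand: caccggccgggaACGTGcaggctggaggt
CA9 promoter, chr9:35673895-35673923, minus strand: tgtacgggctgtACGTGcattggaaacga
site near ADM, chr11:10329531-10329559, plus strand: ccgccaagcagtACGTGcggtttaataag
site in the EGLN3 intron, chr14:34407693-34407721, plus strand: gctACGTGcgctGCGTGagggtggcagcc
distal site, nearest gene ARRDC3, chr5:90576449-90576477, plus strand: acgctcggcgctACGTGccggcctgggcg
The LDHA stretch holds the palindromic E-box CACGTG, in which an HRE core is read from each strand, and the PDK1 and EGLN3 stretches hold 2 cores each. The next stretches show sites called for HIF-1α but not HIF-2α in HKC8 or RCC4 (NARF, RAPGEF6, FAM174B), sites with the reverse pattern (KIFC3 in HKC8, FHAD1 in RCC4) and the shared site with a peak in no other library (AGFG2).
NARF promoter, chr17:80416375-80416403, plus strand: ccccggcgccgtACGTGgagtgagcctgc
RAPGEF6 promoter, chr5:130971336-130971364, minus strand: gatatgaggtgtGCGTGgaattccttctt
FAM174B promoter, chr15:93352343-93352371, plus strand: ctcccgcactagGCGTGgtgcccggagcg
site in the KIFC3 intron, chr16:57874905-57874933, minus strand: agagactgcagaACGTGacagggttgaag
site in the FHAD1 intron, chr1:15682991-15683019, plus strand: caggtGCGTGctACGTGacccaggccaca
site in the AGFG2 intron, chr7:100142337-100142365, plus strand: agaaaaagctcgACGTGgggtggtgggcg
Windows of 201 bases around the centre show 3 of the distal sites with the most calls, again with HRE cores in capitals.
intergenic site near DDIT4, chr10:74020692-74020892, plus strand: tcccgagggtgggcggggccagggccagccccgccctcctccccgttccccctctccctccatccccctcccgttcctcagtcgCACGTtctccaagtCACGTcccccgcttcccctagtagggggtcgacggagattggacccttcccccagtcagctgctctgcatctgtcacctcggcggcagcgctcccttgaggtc
site in the SEMA4B intron, chr15:90709033-90709233, plus strand: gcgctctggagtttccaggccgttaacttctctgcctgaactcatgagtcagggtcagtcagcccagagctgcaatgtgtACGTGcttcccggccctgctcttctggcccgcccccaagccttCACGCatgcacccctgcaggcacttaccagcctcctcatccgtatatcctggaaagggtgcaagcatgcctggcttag
intergenic site near BHLHE40, chr3:5028227-5028427, plus strand: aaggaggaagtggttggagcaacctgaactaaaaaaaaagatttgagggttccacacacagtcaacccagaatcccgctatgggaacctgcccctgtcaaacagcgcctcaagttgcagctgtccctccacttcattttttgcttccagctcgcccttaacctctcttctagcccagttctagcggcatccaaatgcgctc
The window near DDIT4 and the window in SEMA4B each held 2 HRE cores, and the window near BHLHE40 held none. The calls of the BHLHE40 site in 42 of the 44 other libraries were for its whole interval (chromosome 3, 5027288 to 5029366). The centre of a site is the midpoint of its interval, not a peak summit, so a core may lie outside the window.

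Most of the shared sites recurred in HKC8. HIF-1β peaks of WT HKC8 overlapped 967 of the 1112 sites (87.0%) and those of RCC4 overlapped 488 (43.9%). Of all shared sites, 343 were met in both kidney lines, 624 in HKC8 only and 145 in RCC4 only. The HKC8 lists were the longer, with 6192 and 8268 peaks against 908 and 1305 in RCC4, and the shared sites took 12.8% and 11% of the HKC8 lists but 40.5% and 30.1% of the RCC4 lists. Both replicates of HKC8 had a peak at 718 shared sites (64.6%) and both replicates of RCC4 at 269 (24.2%). The narrowest overlaps that still counted were 1 bp at a site 3.5 kb from STC2, 112 bp at the AGFG2 site and 241 bp at a site near MED9. The HepG2 sites that came closest without overlapping had gaps of 74 bp (near INHBE), 118 bp (near KLF14) and 120 bp (near ID2).

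The shared sites lay close to promoters more often than the other HepG2 sites. The centre was within 1 kb of a protein-coding TSS at 635 of 1112 shared sites (57.1%, 95% CI 54.1% to 60.0%) and at 362 of 1044 others (34.7%, 31.8% to 37.6%). The difference was 22.4 percentage points (Newcombe 95% interval 18.3 to 26.5). The intervals cover counting error over sites, which are not replicates. The median distance to a TSS was 0.445 kb at shared sites and 7.38 kb at the others. Beyond 10 kb lay 27.7% of the shared sites and 45.5% of the others, and beyond 50 kb 12.2% and 18.7%. Shared sites had a median GC content of 61.7% in the window of 201 bases and a median of 13 CpG dinucleotides in it, against 53.7% and 6 at the others. Shared sites also had the stronger peaks in HepG2, with a median mean rank of 964.0 in its HIF-1β lists against 1602 (rank 1 being the highest score), and the part of peak strength in these differences was not tested.

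**Figure D1:**
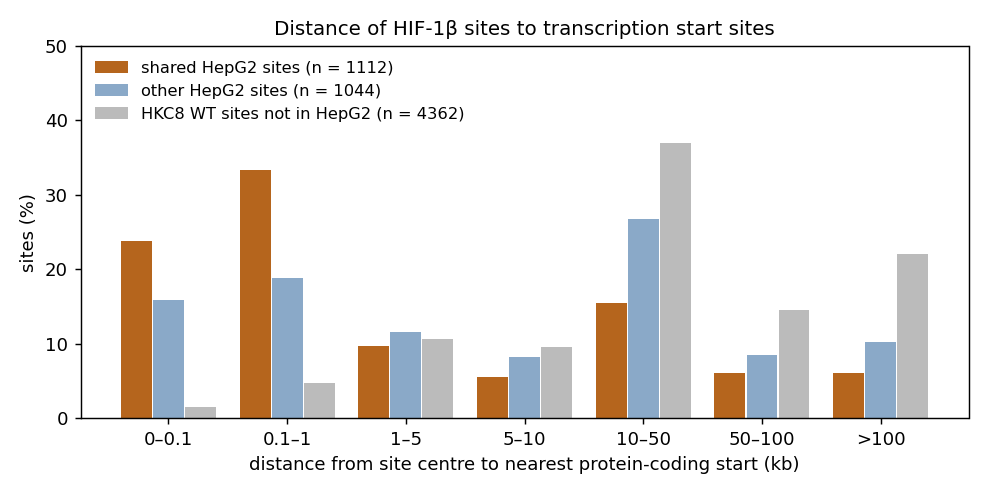
Share of HIF-1β sites (y axis, %) by distance from the site centre to the nearest protein-coding TSS (x axis, kb) for shared HepG2 sites, other HepG2 sites and HKC8 WT sites that overlapped no HepG2 site. Shared sites are at 23.8% and 33.3% in the 2 nearest classes, whereas these HKC8 sites are at 1.54% and 4.68% there and peak at 36.9% between 10 and 50 kb.

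By annotation, the centre of a shared site fell in an intron in 34.9% of cases, between genes in 27.5%, in an untranslated region in 18.3%, within a noncoding gene in 12.4% and in a coding exon in 6.92%. The kidney line in which a site recurred went with its position. Sites met in RCC4 only were within 1 kb of a TSS in 71.7% of 145 cases (95% CI 63.7% to 78.9%), those met in both lines in 58.3% of 343 (52.9% to 63.6%) and those met in HKC8 only in 53.0% of 624 (49.0% to 57%). The first of these intervals did not overlap the others, and the last 2 did overlap. When a kidney peak was required in both replicates of a line, 806 sites remained shared and 50.7% of them were promoter-proximal.

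The HRE core was common to both kinds of HepG2 site. ACGTG or GCGTG occurred within 100 bp of the centre, on either strand, at 826 of 1112 shared sites (74.3%, 95% CI 71.6% to 76.8%) and at 732 of 1044 others (70.1%, 67.2% to 72.9%). The difference was 4.17 points (0.384 to 7.94). Windows of equal length 2 kb to either side of the centres held a core in 25.1% (shared) and 26% (others) of cases, and over all 2156 HepG2 sites the share was 72.3%. At least 2 cores were present at 37.6% of the shared sites and 31.1% of the others, a difference of 6.46 points (2.45 to 10.4). Among promoter sites the core was at 74.5% of the shared and 68.0% of the others, a difference of 6.53 points (0.736 to 12.5). Among distal sites the share with a core was 74.0% of 477 shared sites and 71.3% of 682 others, a difference of 2.74 points whose interval (-2.51 to 7.87) spanned 0. Somewhere in the whole interval, whose median width was 1336 bp, 99.3% of the shared sites held a core. Among the words of 7 bases formed by the core and its neighbour on each side, the commonest at shared sites were TACGTGC, at 102 of the 826 shared sites with a core (12.3%) and at 13.3% of the others, and GACGTGC, at 89 (10.8%) and also 10.8% of the others.

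**Figure D2:**
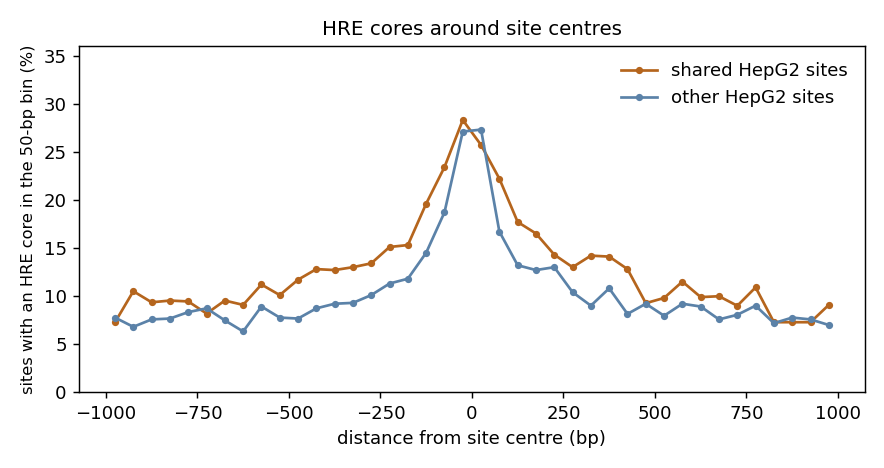
Share of sites with an HRE core (y axis, %) in bins of 50 bp by distance from the site centre (x axis, bp), for shared and other HepG2 sites. Both curves peak at the centre, where shared sites reach 28.3% and the others 27.3%, and away from the centre the curve of the shared sites lies above that of the others in most bins.

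Other motifs were searched in the same windows on both strands. AP-1 (TGACTCA or TGAGTCA), bound by FOS and JUN dimers, occurred at 7.19% of the shared sites and 5.65% of the others, with 3.91% and 3.07% in the windows 2 kb away. Among distal sites it occurred at 13% of the shared sites and 7.04% of the others, a difference of 5.96 points (2.48 to 9.68). A forkhead motif (TGTTTAC), a class bound by liver FOXA factors among others, occurred at 2.25% of the shared sites and 3.54% of the others, a difference of -1.30 points whose interval (-2.78 to 0.128) spanned 0. The GC box (GGGCGG) of CpG-rich promoters occurred at 38.2% and 26.4%. Within promoter sites alone its shares were 53.4% and 54.1%. The E-box (CACGTG), every copy of which also counts as an HRE core, occurred at 10.6% and 9.48%. Over all HepG2 sites the shares were 6.45% for AP-1, 2.88% for the forkhead motif, 32.5% for the GC box and 10.1% for the E-box.

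Calls in the 44 libraries that did not choose the sites ranged widely. A shared site had a peak in a median of 11 of them (quartiles 6 and 18). The other HepG2 sites had a median of 3, which is low by the choice of sites, since they lacked a HIF-1β peak in the kidney lines. Without the 4 HepG2 HIF-α lists the median of the shared sites was 8 of 40 (quartiles 4 and 15). The median was 21 of 44 for sites met in both kidney lines and 8 for those met in either line alone, and without the HepG2 lists 18 of 40 for both lines, 6 for HKC8 only and 4 for RCC4 only. In 22 or more libraries lay 206 sites (18.5%), in 40 or more 19 sites, and in 5 or fewer 240 sites (21.6%). A pair of sites had a peak in all 44, and without the HepG2 lists 2 sites were called in all 40 and 32 in none. They lie 103 kb from the TSS of ARRDC3, an arrestin-domain protein, and 74.3 kb from that of NDRG1, a stress-responsive gene strongly induced by hypoxia. The sites next in rank were at PPP1R3C, which targets a phosphatase to glycogen, at LDHA, the enzyme that makes lactate from pyruvate, and at ALDOA, the glycolytic aldolase, each called in 43 libraries. Then came GAPDH, PLOD2, which hydroxylates lysine in collagen, distal sites 7.21 kb from BHLHE40 and 12.9 kb from DDIT4, and a SEMA4B intron site, each called in 42. The opposite extreme was the AGFG2 intron site (chromosome 7, 100141571 to 100142940), whose HIF-1β overlap came from 1 HKC8 library and which no other library called.

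The nearest protein-coding genes of the shared sites numbered 1040, which is 5.25% of 19794 annotated genes, and 633 genes (3.20%) had a shared site within 1 kb of a TSS. Nearest is a positional label and does not show which gene a site controls. Among the 172 annotated genes of 16 lists of hypoxia-related functions, 101 (58.7%) had a shared site, 79 of them within 1 kb. Another 61 were the nearest gene of no HepG2 HIF-1β site. These lists were drawn up with earlier results of these data known, and many of their genes were first described as HIF targets, so the share describes the lists and is no test. The 120 shared sites of listed genes were called in a median of 23 of the 44 other libraries, against 11 over all shared sites, and in 19 against 8 of the 40 without the HepG2 lists. EGLN3 had 4 shared sites, the most of any gene, and HK2 was among those with 3.

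Of 20 genes of glucose uptake and glycolysis, 18 had a shared site and 16 had it at the promoter. The covered steps ran from the transporters SLC2A1 and SLC2A3 through HK2, GPI, PFKL, PFKP, ALDOA, TPI1, GAPDH, PGK1, PGAM1, ENO1 and PKM to LDHA. HK1 and PFKM were the 2 genes that were nearest to no HepG2 HIF-1β site. The 24 shared sites of this list were called in 4 to 43 other libraries (median 27). GPI, which interconverts hexose phosphates, had a promoter site (chromosome 19, 34849520 to 34851131) with 6 HRE cores in its central window that was called in 40 libraries. That site was called by all 8 HIF-1α libraries and by 4 of the 8 HIF-2α libraries of the severity and duration experiment. The LDHA site (chromosome 11, 18415259 to 18416800, 0.077 kb from the TSS) was called by all 8 and by 7. Both were also called in both replicates of every HIF-α group of RCC4 and of the knockout experiment. For pyruvate and lactate, 3 of 10 genes had a shared site. They were PDK1 and PDK3, kinases that inhibit pyruvate dehydrogenase, and SLC16A3, a lactate exporter. The PDK1 site was called in 41 libraries, SLC16A3 in 36 and PDK3 in 7.

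Glycogen genes had shared sites in 6 of 10 cases, each within 1 kb of the TSS. PPP1R3C (43 libraries) and the branching enzyme GBE1 (29) led, followed by PGM1 (19) and UGP2 (12). The GBE1 site was called in both replicates of every HIF-α group of the knockout experiment, RCC4 and HepG2, while 4 of 8 HIF-1α and none of 8 HIF-2α libraries of the severity and duration experiment called it. PGM1 was called in 6 of those 8 HIF-1α libraries and in both RCC4 HIF-1α replicates, but in neither replicate of WT HKC8 HIF-1α.

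Of 11 histone demethylases and related dioxygenases, 10 had a shared site and 7 had it at the promoter, with KDM4A the exception. These enzymes use oxygen as a substrate. KDM4B was called in 41 libraries, KDM3A in 40, and KDM2B and KDM6B in 25 each. Oxygen sensing itself gave 5 of 11 genes. EGLN1 and EGLN3 encode prolyl hydroxylases that act on HIF-α, and their leading sites were called in 23 and 38 libraries. The EGLN1 promoter site was called in 6 of 8 HIF-1α libraries of the severity and duration experiment but in none of the 14 of the knockout experiment, HIF-1β included, and entered the set through RCC4. VHL, HIF1A and ARNT, which encode the VHL protein, HIF-1α and HIF-1β, had no HepG2 HIF-1β site nearest to them.

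Among 13 vascular and secreted factors 7 had a shared site, led by the site 2.62 kb from ADM (36 libraries), which encodes the vasodilator adrenomedullin, and by a site near STC2 (35). The VEGFA promoter site was called in 19 libraries, among them none of the 16 HIF-α libraries of the severity and duration experiment. Of 9 genes of collagen and matrix modification 5 had a shared site, with PLOD2 (42), the prolyl hydroxylase subunit P4HA1 (41) and LOXL2 (37) ahead of LOX (22). Iron genes gave 4 of 8, namely TFRC, the transferrin receptor (37), HMOX1 (23), CP (23) and a site 58.1 kb from FTH1 (19). EPO, TF and SLC11A2 were nearest only to HepG2 sites that were not shared. In pH regulation 1 of 5 genes, the carbonic anhydrase CA9, had a shared site (30 libraries).

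Among transcriptional regulators 10 of 14 genes had a shared site. The circadian and hypoxia repressor BHLHE40 had a promoter site called in 39 libraries beside the distal site called in 42, ZNF395 had a site called in 33, and MXI1, a repressor that dimerises with MAX, had one called in 29. Mitochondrial and mitophagy genes gave 6 of 10, with BNIP3L (38), AK4 (37), LONP1 (32) and FAM162A (26) named by the number of calls. The mTOR and stress group gave 4 of 9, lipid storage 6 of 10 (HILPDA in 34 libraries, PLIN2 and INSIG2 in 24 each, LRP1 in 16) and growth control 3 of 10 (CCNG2 and EGFR in 28 each). Clock genes gave 1 of 9, a site 7.05 kb from PER1 that 10 libraries called. Other genes that respond to hypoxia in many lines gave 13 of 14, with ANKRD37 (39), ZNF292 (36), RBPJ (34) and SAP30 (31) at the top.

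The α subunit found at the shared sites was compared per line. In WT HKC8, 395 of the 1112 sites (35.5%, 95% CI 32.7% to 38.4%) had a HIF-1α peak in both replicates and 347 (31.2%, 28.5% to 34.0%) a HIF-2α peak in both. Over all 2156 HepG2 sites the shares were 18.3% and 16.1%. In RCC4, HIF-1α was called in both replicates at 418 sites (37.6%) and HIF-2α at 233 (21.0%), over a background of 20.7% and 11.2%. These backgrounds are low by the choice of sites, because the 1044 others were set aside for lacking a HIF-1β peak in these cells, and of those others HIF-1α of WT HKC8 called 0 in both replicates and that of RCC4 called 28 (2.68%). In HepG2, both lists labelled HIF-1α had a peak at 380 shared sites (34.2%) and both labelled HIF-2α at 469 (42.2%), where the background was 35.5% and 41.1%. At least 1 HepG2 list of the label called 98.2% and 93.7% of the shared sites. Of the 1044 others, the list labelled HIF-1α replicate 2 alone called 92.2% and that labelled HIF-2α replicate 1 alone 79.7%.

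Sites were classed as HIF-1-only when both HIF-1α replicates and neither HIF-2α replicate had a peak, and as HIF-2-only in the reverse case. In WT HKC8, 98 shared sites were HIF-1-only, 40 HIF-2-only and 251 bound both isoforms in both replicates. A further 330 had calls in 1 replicate or a mixture, and 393 had no HIF-α peak. HIF-1-only sites were within 1 kb of a TSS in 74.5% of cases (95% CI 64.7% to 82.8%), sites of both isoforms in 31.5% (25.8% to 37.6%) and HIF-2-only sites in 20% (9.05% to 35.6%). The HRE core was at 73.5%, 74.5% and 72.5% of these classes in that order, and AP-1 at 5.1%, 12% and 7.5%.

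RCC4 had 133 HIF-1-only shared sites, 193 of both isoforms and 3 HIF-2-only sites. The 3 are intron or intergenic sites near FHAD1 (11.1 kb from a TSS), EEF1A1 (54.9 kb) and RGS20 (64.3 kb). The FHAD1 and RGS20 sites had no HIF-1β peak in RCC4, and the EEF1A1 site had it in 1 replicate. HIF-1-only sites were promoter-proximal in 82% of cases (74.4% to 88.1%) and sites of both isoforms in 42% (34.9% to 49.3%). Between the kidney lines 42 sites were HIF-1-only in both and 119 bound both isoforms in both. HIF-2-only in both lines were 0 sites, and 0 were HIF-1-only in one line and HIF-2-only in the other. The HIF-2-only class held 40 sites in HKC8 and 3 in RCC4, so these 0 counts rest on few sites. Of the 40 in HKC8, 19 had calls in 1 replicate or a mixture in RCC4, 19 had no HIF-α peak and 2 bound both isoforms. As labelled, HepG2 had 0 HIF-1-only sites and 1 HIF-2-only site, in a SLC35D2 intron, so its classes could not be used. By mean score rank in the 2 lists of the isoform in that line, the best HIF-1-only sites of HKC8 were at NARF (chromosome 17, 80414948 to 80417745), VGLL4 and RAPGEF6, and those of RCC4 at RLF, FAM174B and NARF. NARF, VGLL4, RLF and FAM174B were each called in all 8 HIF-1α, in none of the 8 HIF-2α and in all 8 HIF-1β libraries of the severity and duration experiment, and RAPGEF6 in 4, 0 and 6 of them. The best HIF-2-only sites of HKC8 by the same ranking were intron or distal sites at KIFC3 (5.44 kb from a TSS), MFHAS1 (21.5 kb) and AZIN1 (51.0 kb), and all 3 had 0 calls in those 8 HIF-1α libraries. In the 8 HIF-2α libraries KIFC3 and MFHAS1 also had 0 calls, and AZIN1 had 5.

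The share of a library's own peaks that fell at the shared sites was used beside the counts. This share can still move with list length. In WT HKC8 the lists held 1910 and 1529 peaks for HIF-1α and 4523 and 6736 for HIF-2α. The share there was 29.6% and 29.2% for HIF-1α and 9.09% and 6.35% for HIF-2α. In RCC4 it was 15.8% and 20.1% against 9.74% and 8.07%. At 0.5% oxygen in the severity and duration experiment, it was 14.6% and 11.8% against 7.51% and 8.69% at 6 h, and 26.6% and 22.3% against 12.2% and 15% at 16 h. In these 4 conditions both HIF-1α libraries were above both HIF-2α libraries. At 48 h the values were 16.0% and 6.10% against 12.5% and 6.33%, and at 3% oxygen 6.98% and 5.83% against 6.72% and 8.18%, and the isoforms overlapped. They also overlapped in HepG2 as labelled, with 11.2% and 16.0% against 19.7% and 11.2%.

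Over the 7 conditions the HIF-1α share exceeded the HIF-2α share by a mean of 6.50 percentage points (exact permutation test within condition, two-sided, p = 0.00553, Benjamini-Hochberg adjusted over 10 tests p = 0.0309). Without HepG2 the mean was 7.90 points (exact permutation p = 0.00210). Within the HKC8 conditions alone it was 7.66 points (p = 0.0105 by the same exact permutation). With every list cut to its 237 best peaks and the 1112 sites kept, it was 20.2 points. When the sites too were chosen again from the cut lists, it was 35.5 points for a score of at least 100 (597 sites) and 9.55 points for the upper 50% of each list (692 sites). By condition the difference ranged from 21.7 points in WT HKC8 to -1.04 at 3% oxygen and -1.86 in HepG2.

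**Figure D3:**
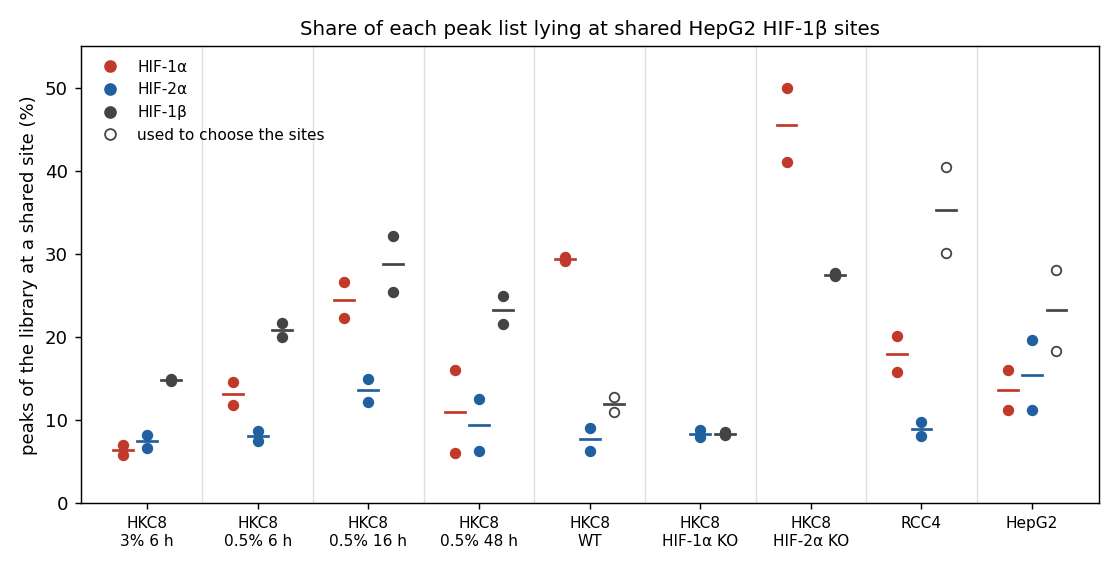
Share of the peaks of each library that overlap a shared site (y axis, %) by cell line and condition (x axis). Points are libraries, bars their means, colours the antibody, and open circles the HIF-1β libraries that chose the sites. The highest values are the HIF-1α libraries of HIF-2α KO cells at 41.1% and 50%, and every HIF-2α library outside HepG2 is at or under 15%.

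Loss of an isoform was read at the same sites. The HIF-1β lists of HIF-1α KO cells called 290 and 468 of the 1112 shared sites (281 in both replicates, 25.3%, over a background of 13.1%), and those of HIF-2α KO cells 691 and 574 (536 in both, 48.2%, over a background of 25%). Here and in the paragraphs that follow, the background is over all 2156 HepG2 sites and is low by the choice of sites. Of the 1044 others, HIF-1β was called in both replicates at 2 (0.192%) in HIF-1α KO cells and at 4 (0.383%) in HIF-2α KO cells. The HIF-1α KO lists were the longer, with 3375 and 5781 peaks against 2549 and 2082. Shared sites made up 8.59% and 8.20% of HIF-1β peaks in HIF-1α KO cells and 27.3% and 27.7% in HIF-2α KO cells. The 718 shared sites with HIF-1β in both WT replicates were picked by their WT calls, so a knockout could only equal WT or fall below it there. Of these 718, 213 (29.7%) had HIF-1β in both replicates of both knockouts. A further 181 (25.2%, 95% CI 22.1% to 28.6%) had it in both HIF-2α KO replicates and in neither HIF-1α KO replicate, and 28 (3.9%, 2.61% to 5.59%) showed the reverse. Of the 181, 77.9% (71.1% to 83.7%) were within 1 kb of a TSS, whereas the share was 31.5% (25.3% to 38.2%) for the 213 and 25% (10.7% to 44.9%) for the 28. AP-1 was at 2.21%, 15.5% and 14.3% of them.

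The classes of WT cells went with these calls. Of the 98 HIF-1-only sites, 4 (4.08%) and 14 (14.3%) had a HIF-1β peak in the HIF-1α KO libraries and 94 (95.9%) and 85 (86.7%) in the HIF-2α KO libraries. Of the 40 HIF-2-only sites, 42.5% and 65.0% had it in HIF-1α KO cells and 37.5% and 27.5% in HIF-2α KO cells. Sites of both isoforms kept HIF-1β in either background, at 79.7% and 92.0% and at 95.2% and 90.0%. The gap between these classes (HIF-1-only minus HIF-2-only) differed between the knockouts by 103 percentage points, and the 4 libraries did not overlap. An exact permutation test of 2 against 2 libraries cannot go below 0.333, the p it gave (adjusted p = 0.417).

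**Figure D4:**
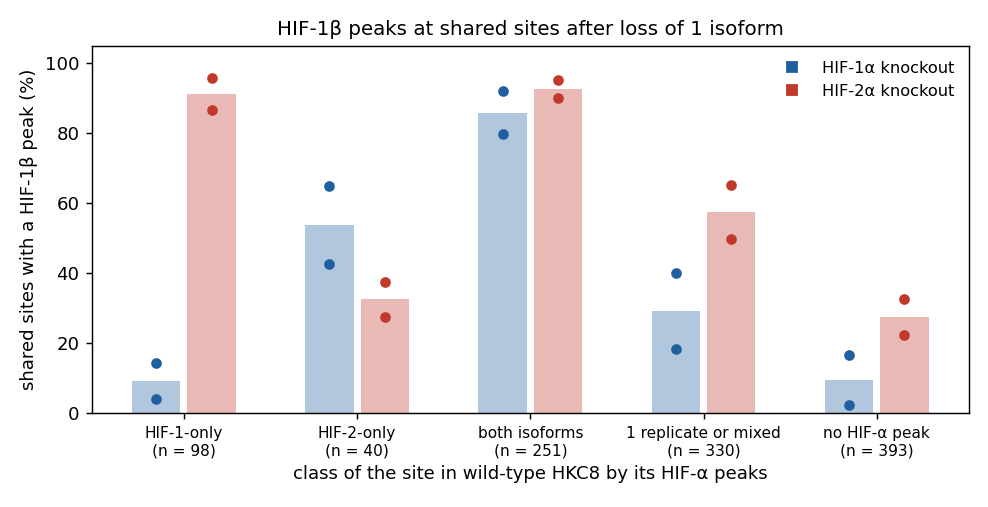
Share of shared sites with a HIF-1β peak (y axis, %) in HIF-1α KO and HIF-2α KO cells, by the class of the site in WT HKC8 (x axis). Bars are means of 2 libraries and points the libraries. HIF-1-only sites are at 4.08% and 14.3% against 95.9% and 86.7%, and sites of both isoforms are at 79.7% or more in all 4 libraries.

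The remaining isoform was itself compared with WT. HIF-1α called 50.5% and 40% of the shared sites in WT cells and 46.8% and 40.6% in HIF-2α KO cells, a difference of -1.62 points that was smaller than the spread between replicates (exact permutation p = 1.0). In both replicates of HIF-2α KO cells it was called at 370 sites (33.3%, over a background of 17.2%). HIF-2α called 36.6% and 38.0% in WT cells and 40.9% and 46.4% in HIF-1α KO cells, a difference of 6.34 points with no overlap between the groups (exact permutation p = 0.333, the smallest possible). The share of the HIF-2α lists at shared sites did overlap, with 9.09% and 6.35% in WT cells and 8.78% and 8.01% in HIF-1α KO cells. In both replicates of HIF-1α KO cells HIF-2α was called at 422 sites (37.9%, over a background of 19.9%). At the 98 HIF-1-only sites HIF-2α was called at 15 and 20 in HIF-1α KO cells, where by definition WT cells had 0. At the 40 HIF-2-only sites HIF-1α was called at 4 and 1 in HIF-2α KO cells, where WT cells again had 0 by definition. Among the examples, NARF and VGLL4 had HIF-2α in both replicates of HIF-1α KO cells, whereas RLF, FAM174B and RAPGEF6 had 0 such calls.

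Severity of hypoxia was examined at 6 h in HKC8. The HIF-1β calls that chose the sites came from HepG2 and WT HKC8 at 0.5% oxygen for 16 h and from normoxic RCC4. The choice may favour libraries at 0.5% oxygen, and the tests cannot tell this apart from an effect of severity. HIF-1β called 250 and 271 shared sites at 0.5% oxygen and 169 and 138 at 3%. HIF-1α called 215 and 152 at 0.5% and 82 and 36 at 3%. HIF-2α called 105 and 125 at 0.5% and 37 and 77 at 3%. For each of the 3 antibodies, both libraries at 3% lay below both at 0.5%, and the mean ratio over antibodies was 0.455 (exact permutation within antibody, two-sided, p = 0.00926, the smallest possible, adjusted p = 0.0309). The test counts the 3 antibodies as separate. Whether their libraries came from the same cultures is not given in the sources used here. If they did, the p-values for severity and duration would be too small. The lists at 3% were also shorter, with 551 to 1218 peaks against 1269 to 1490. The share of the lists at shared sites had a ratio of 0.681 (exact permutation p = 0.0185, adjusted p = 0.0370), made up of 0.484 with the HIF-1α antibody, 0.709 with that to HIF-1β and 0.919 with that to HIF-2α. The HIF-2α libraries overlapped between the oxygen levels in this share. In both replicates, HIF-1β at 3% was called at 103 shared sites (9.26%, background 4.92%) and at 0.5% at 197 (17.7%, background 9.37%). Of the 103 sites, 96.1% were also called in at least 1 HIF-1β library at 0.5% oxygen and 6 h, and of the 197, 71.1% in at least 1 at 3%. HIF-1α was called in both replicates at 31 shared sites at 3% (background 1.44%) and 124 at 0.5% (background 5.98%), and HIF-2α at 29 (background 1.35%) and 79 (background 3.71%).

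Duration was examined at 0.5% oxygen. Most of the choice of sites rested on HIF-1β libraries of 16 h, which may by itself raise the values at 16 h. The tests cannot tell this apart from an effect of time. At 16 h HIF-1β called 432 and 449 shared sites, HIF-1α 346 and 208, and HIF-2α 143 and 156. Over the 3 antibodies the number was 1.49 times that at 6 h (exact permutation p = 0.0185, adjusted p = 0.0370) and the share of the lists 1.62 times (exact permutation p = 0.00926, the smallest possible, adjusted p = 0.0309), with both 16 h libraries of each antibody above both 6 h libraries in the share. When peaks had to score at least 100, the share did not pass the test (log2 ratio 0.03, exact permutation p = 0.880). At 48 h HIF-1β called 262 and 133, HIF-1α 168 and 63, and HIF-2α 169 and 15. The number was 0.725 times that at 6 h (exact permutation p = 0.315, adjusted p = 0.417) and the share 1.03 times (exact permutation p = 0.870, adjusted p = 0.967), and neither passed the test. The HIF-2α library with 15 calls was the shortest list of the series, at 237 peaks. Without the longer of the HIF-2α lists at 48 h the log2 ratio of the number went from -0.463 to -1.34 (exact permutation p = 0.0463, not adjusted).

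**Figure D5:**
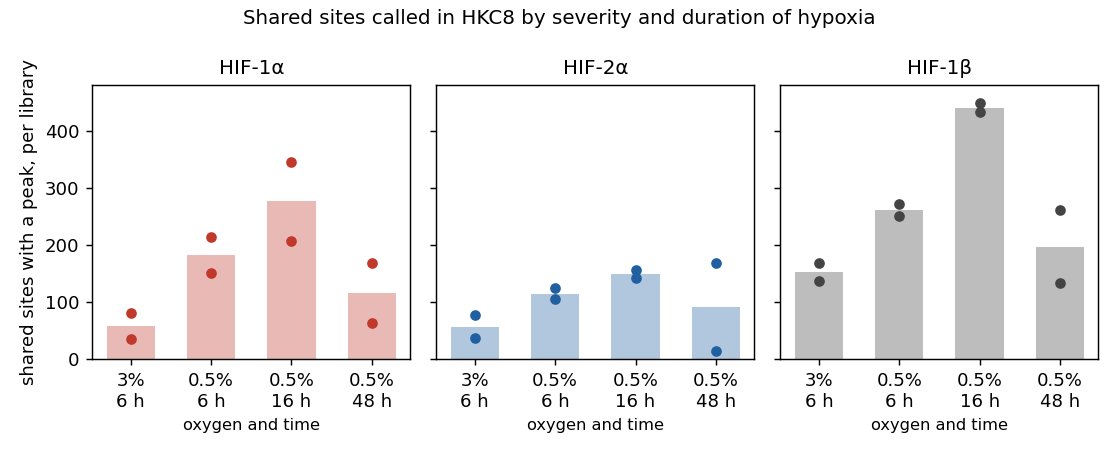
Number of shared sites called per library (y axis) in HKC8 by oxygen and time (x axis), with a panel per antibody. Points are libraries and bars their means. At 3% oxygen both libraries of each antibody are below both at 0.5% for 6 h, HIF-1β reaches 432 and 449 at 16 h, and the libraries at 48 h lie far apart.

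In both replicates at 16 h, HIF-1β was called at 355 shared sites (31.9%, background 17.3%), HIF-1α at 182 (16.4%, background 8.86%) and HIF-2α at 105 (9.44%, background 4.92%). At 48 h the counts were 118 (10.6%, background 5.57%), 56 (5.04%, background 2.60%) and 15 (1.35%, background 0.696%). Of the 118 HIF-1β sites at 48 h, 99.2% were called in at least 1 library at 16 h and 95.8% in at least 1 at 6 h. In the other direction, 63.9% of the 355 sites at 16 h and 83.8% of the 197 at 6 h were called in at least 1 library at 48 h. HIF-1β was called in both replicates of all 4 conditions at 75 shared sites (6.74%), and in none of the 8 libraries at 541 (48.7%). Listed genes accounted for 33 of the 75 and for 120 of all 1112 shared sites. Sites of glycolysis genes accounted for 10 of the 75 and 24 of the 1112. Promoter-proximal sites made up 50.7% of the 75, 61.3% of the 571 called in any of the 8 libraries and 52.7% of the 541. The promoter share of the called sites stayed apart by isoform. Of the sites called by HIF-1α in both replicates, 71.0% at 3%, 68.5% at 6 h, 72.5% at 16 h and 67.9% at 48 h lay within 1 kb of a TSS, and of those called by HIF-2α 31%, 35.4%, 38.1% and 20%.

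The shared sites were last set against the HKC8 HIF-1β sites that overlapped no HepG2 site. A HepG2 site needed a peak in both libraries, so an unshared HKC8 site may still have a peak in 1 HepG2 library. WT HKC8 had 5085 sites with HIF-1β in both replicates, of which 723 overlapped a HepG2 site and 4362 did not. HIF-1α was called in both replicates at 54.1% of the shared sites (95% CI 50.4% to 57.8%) and at 15.5% of the unshared (14.5% to 16.7%), over 21.0% of all 5085. HIF-2α was called at 47.4% (43.7% to 51.2%) and 65.0% (63.5% to 66.4%), over 62.5% of all. Of the 133 HIF-1-only sites of HKC8, 94 (70.7%, 62.2% to 78.2%) were shared with HepG2. Of the 1790 HIF-2-only sites, 36 (2.01%, 1.41% to 2.77%) were, and of the 858 sites of both isoforms, 252 (29.4%, 26.3% to 32.5%).

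Position and sequence differed with sharing as well. Within 1 kb of a TSS lay 49.2% of the 723 shared HKC8 sites and 6.21% of the 4362 unshared, a difference of 43.0 points (39.3 to 46.7). The HRE core was at 66.8% and 47.4%, a difference of 19.4 points (15.6 to 23), and AP-1 at 10.1% and 17.5%, a difference of -7.44 points (-9.74 to -4.79). In HIF-1α KO cells HIF-1β was called in both replicates at 38.5% of the shared and 48.8% of the unshared sites, over 47.3% of all. In HIF-2α KO cells it was called at 67.1% and 20.4%, over 27.1%. HIF-2α was called at 53.0% and 60.3% in HIF-1α KO cells, over 59.3%, and HIF-1α at 49.0% and 6.21% in HIF-2α KO cells, over 12.3%. These shares compare sites within the same libraries, and their intervals cover counting error only. The number of reads behind each site is unknown, so a difference in the strength of shared and unshared sites was not tested.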

How the data were processed

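The data are peak lists of chromatin immunoprecipitation with sequencing (ChIP-seq), 1 for each of 50 ChIP libraries. The 16 input samples have no peak list of their own here. Per the submitters' processing notes and the study's methods, the authors trimmed reads with Trim Galore 0.3.3, aligned them to GRCh37 (hg19) with BWA 0.7.5a-r405, handled reads with SAMtools 0.1.19, bedtools 2.17.0 and Picard 1.106, and called peaks with MACS (version not given in the sources used here) in control mode. The methods also name T-PIC, a second caller, and a filter of peaks found by both against random background regions. Peak names in the files are those of MACS, and whether that filter was applied to the deposited lists is not given in the sources used here. The value deposited with each peak is the caller's score (50.0 to 3233), and served here for ranks and minimum scores inside a list. Lists were called per library and carry no read depth.

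Peaks on chromosomes 1 to 22, X and Y were kept, which left out 294 (0.224%) and 2 HepG2 HIF-1β sites. Sites and overlaps (1 bp minimum), distances to GENCODE 44 protein-coding TSS mapped to GRCh37, motif matches in 201-base windows and shares were computed in Python 3.11.15 with numpy 2.4.6, pandas 2.3.3 and scipy 1.17.1, and drawn with matplotlib 3.10.9. Coordinates are 1-based. A gene is the one with the TSS nearest to the centre of a site.

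Libraries were compared by exact two-sided permutation tests with labels permuted within condition or antibody, and the 10 tests were adjusted by the Benjamini-Hochberg method. Shares of sites have 95% Clopper-Pearson intervals and differences Newcombe intervals, which cover counting error only. Overlap, permutation, interval and motif functions were tested on simulated data. The alternatives were stricter overlap, score and replicate requirements, each kidney line alone, lists of equal length, other promoter and HRE definitions, a replicate block and leaving out each library. The restriction to HKC8 libraries and the library counts without the HepG2 HIF-α lists were added after seeing the data.

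The sites, gene lists and tests were chosen with earlier results of these data known. Named sites were, for each list, up to 4 shared sites called in most of the 44 libraries outside the choice, the 10 shared sites called in most of them, for each line the 3 sites of either isoform class with the best mean score rank, and those nearest to the overlap limit. Sites with 0 calls elsewhere and genes named without a library count were chosen after their values were seen.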

Additional observations from a re-analysis of the deposited data

How the results depend on the processing

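The lists carry no depth, so a missing peak is not evidence of absent binding. Of 222 recalculations, 15 moved a count or share beyond its margin, 8 changed a sign, 1 lost and 1 gained significance at unadjusted p, and the remainder changed neither direction nor that call. The HIF-1α minus HIF-2α difference in the share of peaks kept its direction and an unadjusted p under 0.05 in all of its alternatives, and so did the number of shared sites called at 3% oxygen and at 16 h. All of these alternatives still chose the sites from HepG2 at 0.5% oxygen for 16 h.

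The number of shared sites was 597 when peaks had to score 100 or more, 692 in the upper 50% of each list, 488 with RCC4 as the only kidney line and 712 with the HKC8 HIF-1β libraries of 16 h from the severity and duration experiment in place of WT. Leaving out 1 library gave 977 to 1675, the latter without HepG2 HIF-1β replicate 2. The promoter share of shared sites was 50.7% with peaks in both kidney replicates, 62.3% with RCC4 alone, 66.8% with a TSS within 5 kb and 65.7% with all annotated transcripts, and that of the other HepG2 sites was 46.3% and 42.4% with the last 2 definitions. The HRE share was 99.3% anywhere in a shared site and 93.3% within 250 bp, against 97.5% and 90.7% at the others.

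For 16 h against 6 h, the log2 ratio of the share of peaks was 0.0328 with a score of at least 100 and no longer passed the test (p = 0.880 in the exact permutation test), and the cause was not tested. For 48 h against 6 h, the share changed sign in the upper 50% of lists (log2 ratio -0.00314) and in lists of equal length (-0.422), and leaving out 1 library gave -0.249 to 0.215. The number of sites called at 48 h gave -1.34 to -0.171. For HIF-1α calls in HIF-2α KO against WT cells, RCC4 as the only kidney line gave 3.89 points and leaving out 1 library -6.88 to 3.64. Neither comparison passed the test in the main analysis, and the causes were not tested. Leaving out 1 library gave 5.79 to 7.21 points for HIF-1α minus HIF-2α.

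Same-numbered libraries deviated in the same direction with all 3 antibodies in 2 of 6 conditions. With so few conditions and libraries, this check cannot tell whether the numbers pair the libraries. With permutation within replicate number (replicate block), HIF-1α minus HIF-2α stayed at 6.50 points (exact permutation p = 0.0131), and no call at unadjusted p changed. Adjusted over the 10 tests, the 5 results that had passed all came to 0.0625 by exact permutation in the block and no longer passed. For 4 of the 5 the unadjusted 0.0312 is the smallest p the block allows.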
